A study of Cyprinus carpio with 6 samples.

Results

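The genes of the cytosolic ribosomal proteins were followed in whole mid-blastula embryos of common carp (Cyprinus carpio). They were chosen by symbol: every gene whose name begins with rpl, rps or rplp and a number, leaving out the ribosomal protein S6 kinases and names that end in bp1, which are binding proteins. The rule took 38 of 40568 genes and loci with a count, 22 of the large subunit and 16 of the small. RNA-Seq was done on 3 libraries of embryos fathered with sperm kept on ice for 14 days, called aged-sperm embryos here, and on 3 libraries of embryos fathered with fresh sperm, called fresh-sperm embryos. The same males, injected with carp pituitary, gave both kinds of sperm, which was diluted in an extender, and 1 female gave all the oocytes. As no source used here ties a library to a male, the p-values reflect only the spread among these libraries, which may be technical. The number of embryos behind each library is not given in the sources used here.

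A ribosome has a small subunit, which reads the mRNA, and a large subunit, which joins the amino acids. Each is a core of ribosomal RNA dressed with proteins that are needed in equal numbers, apart from the acidic stalk proteins. In vertebrates the mRNAs of these proteins begin with a run of pyrimidines, and the kinase mTOR and the protein LARP1 control their translation as a group. A fish egg is laid down with maternal ribosomes, and protein is made from them before the genome of the embryo is switched on around the mid-blastula stage.

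Common carp is allotetraploid, with an A and a B set of chromosomes, so that a gene may have a near-identical copy with which it shares reads. Vertebrate ribosomes hold 80 kinds of protein, 47 in the large and 33 in the small subunit when rack1 is counted. The 38 genes stood for 37 of these kinds, 21 large and 16 small, since rpl5 had the copies rpl5a and rpl5b. A further 24674 genes with a count carried only a LOC number, and ribosomal protein genes among them were not analysed here. Levels are therefore those of single gene copies and not of the whole mRNA pool of a protein. Of the 38 genes, 28 lay on B chromosomes (73.7%) and 10 on A chromosomes of the assembly ASM1834038v1. Of the 9616 protein-coding genes with a symbol other than a LOC number 67.0% lay on B, and of all 41870 protein-coding genes 51.6% did. Members on A chromosomes had a median of 123 FPKM and those on B chromosomes 42.6 FPKM (fragments scaled to gene length and library size, made by the authors), different genes being on each. The gene models were short, from 384 bases (rpl29) to 1326 bases (rpl4), with a median of 624.5 bases against 2510 bases for all genes.

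Counts of the 38 genes were whole numbers, within 0.001, in every library for 24 genes. The other 14 had counts that were not whole in at least 1 library, which arises where a read is divided between loci that it matches. Among them were rps2, rps3, rps6, rps12, rps15a, rpl5b, rpl10a, rpl13a, rpl24, rpl32, rpl34 and rpl35a, and their values are less certain than those of the others. Such counts are not particular to the members. In single libraries 41.2% to 41.8% of all genes with a count had one that was not whole. Total counts per library ran from 14993459 to 15632387. Of 12 markers of the blastula 5 had a count and 3 passed the low-count filter. Those with a count that did not pass, mxtx2 and gsc, had at most 10 counts in any library. No count was found under the symbols vox, vent, ved, tbxta, klf17, sox3 and eomesa. The list summed to 1497 to 1644 CPM in aged-sperm and 1539 to 1659 CPM in fresh-sperm embryos. CPM is the count scaled to a library of fixed size. For list sums the size is the total count of the library. For single genes it is the library size adjusted by TMM, so the scales differ slightly. nanog, the most highly counted of the list, averaged 804 ± 60.1 CPM in aged-sperm embryos and 817 ± 48.2 CPM in fresh-sperm embryos (SD, n = 3 each). pou5f3 followed at 721 ± 78.8 CPM in aged-sperm embryos and 744 ± 59.4 CPM in fresh-sperm embryos. The sums thus rest mainly on nanog and pou5f3, and most of the listed markers had few counts or none. Markers of the oocyte and germ plasm were present as well. Of 12 such markers 4 had a count and 3 passed the filter. They summed to 323 to 345 CPM in aged-sperm and 328 to 348 CPM in fresh-sperm embryos. buc, dazl, ddx4, nanos3, zar1, zar1l, zp2.1 and ca15b had no count under these symbols. Of 12 markers of differentiated organs, 10 had no count in any library under these symbols. The list summed to 0 CPM in aged-sperm embryos and to at most 0.0662 CPM in fresh-sperm embryos. Of 9 markers of spermatozoa and testis 4 had a count under these symbols. The list summed to 1.44 to 1.80 CPM in aged-sperm and 1.39 to 1.51 CPM in fresh-sperm embryos. Copies known only by a LOC number are not in these lists, so a missing count does not show that the RNA was absent.

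The 38 genes, which stand for 37 of 80 kinds of protein, took a small part of all counts. Copies known only by a LOC number are not in this share. Together they had 22042, 22179 and 22985 counts in aged-sperm embryos and 21811, 22459 and 23970 counts in fresh-sperm embryos. These were 0.141% (95% Wilson interval 0.139 to 0.143), 0.145% (0.143 to 0.147) and 0.153% (0.151 to 0.155) of all counts in aged-sperm embryos. In fresh-sperm embryos they were 0.144% (0.143 to 0.146), 0.148% (0.146 to 0.150) and 0.158% (0.156 to 0.160). These intervals cover counting error only. The share averaged 0.146 ± 0.00627% in aged-sperm embryos and 0.150 ± 0.00692% in fresh-sperm embryos (SD, n = 3 each), and the libraries of the groups overlapped. Small subunit genes took 0.0775 ± 0.00452% and large subunit genes 0.0689 ± 0.00176% in aged-sperm embryos, against 0.0789 ± 0.00636% and 0.0713 ± 0.00180% in fresh-sperm embryos. In whole embryos, fewer cells that express a gene and less RNA per cell cannot be told apart.

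**Figure D1:**
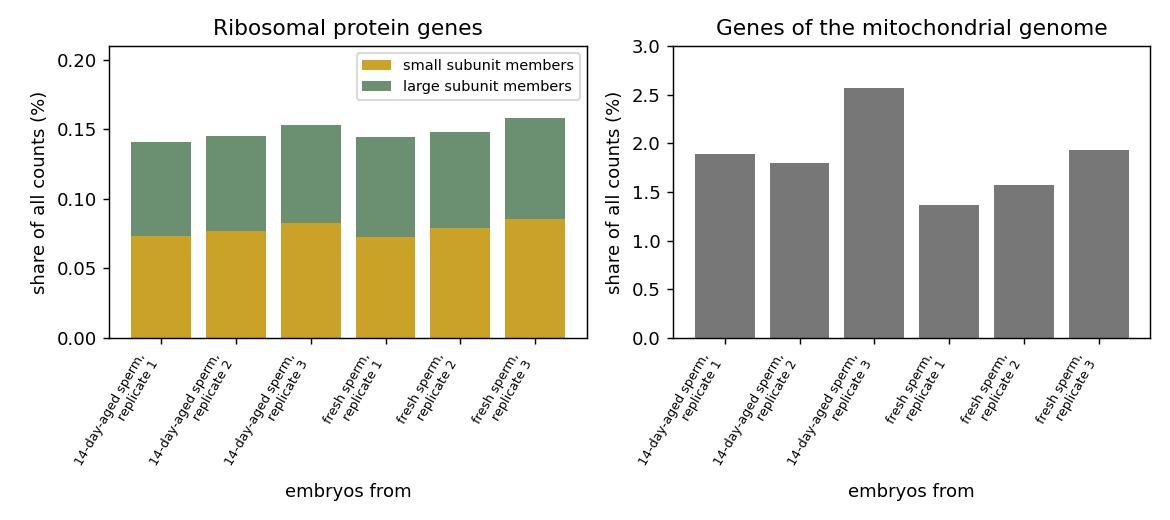
Share of all counts per library in percent, for the 38 ribosomal protein genes by subunit (left, stacked bars) and for the 13 genes of the mitochondrial genome (right). Aged-sperm embryos stand left of fresh-sperm embryos; ribosomal protein genes ran from 0.141% to 0.158%, and replicate 3 was the highest library of each group in both panels.

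Per length, the genes were well above the typical gene but not among the very highest. On the FPKM scale their median was 56.9, 56.9 for the large and 56.4 for the small subunit, beside a median of 1.51 over all genes with a count. Their median level was exceeded by 4.69% of all genes. Of the 38, 13 stood among the 1000 genes of highest mean FPKM and 0 among the first 100. The order of the members was nearly the same in both groups, with Spearman's rho of 0.994 between the group means across 38 genes, which are not independent replicates.

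rps2, a small subunit protein at the entry of the mRNA channel, was the highest and ranked 102nd of all genes. It is on chromosome A3 from 31191608 to 31193819. Its level was 360, 371 and 398 FPKM in aged-sperm embryos and 334, 394 and 417 FPKM in fresh-sperm embryos. It alone held 18.4% of the counts of all 38 genes, and its counts were not whole in any of the 6 libraries. The groups overlapped, with the lowest and the highest library both among fresh-sperm embryos.

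rps20, a protein of the head of the small subunit, followed at 288 ± 21.9 FPKM in aged-sperm embryos and 297 ± 57.0 FPKM in fresh-sperm embryos (SD, n = 3 each). rps12, another protein of the head, had 280 ± 32.8 FPKM in aged-sperm embryos and 274 ± 20.7 FPKM in fresh-sperm embryos. The libraries of rps20 and rps12 overlapped. Of the large subunit rpl32 had the highest mean over all libraries. It stood at 218 ± 5.86 FPKM in aged-sperm embryos and 215 ± 14.3 FPKM in fresh-sperm embryos. rpl24, which forms a bridge between the subunits, had 207 ± 13.1 FPKM in aged-sperm embryos and 220 ± 8.47 FPKM in fresh-sperm embryos. In fresh-sperm embryos its mean was above that of rpl32, and the libraries of rpl32 and rpl24 overlapped. rpl12, at the base of the stalk, had 197 ± 5.14 FPKM in aged-sperm embryos and 201 ± 11.8 FPKM in fresh-sperm embryos. The 5 highest genes thus belonged to both subunits, 3 to the small and 2 to the large. In the ranking of 38 genes, 32 of the 37 neighbouring pairs overlapped between libraries and 5 did not. Clear steps lay below rps12, rpl12, rps9 and rpl29.

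Next below rpl12, 5 genes stood between 155 and 163 FPKM on average, namely rps18, rps14, rpl18, rpl36a and rps9. rps27a, whose protein is made as a fusion with ubiquitin, followed at 99.7 FPKM. rpl29, the shortest gene model, reached 63.1 FPKM from only 105 to 124 counts per library, since its short model leaves a short effective length to divide by.

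The lowest levels were those of stalk and other genes of both subunits. rplp2, an acidic protein of the stalk that recruits elongation factors, had 8.75, 13.1 and 11.98 FPKM in aged-sperm embryos and 8.79, 11.5 and 10.01 FPKM in fresh-sperm embryos. Its stalk partner rplp1 stood higher, at 34.8 ± 4.12 FPKM in aged-sperm embryos and 34.2 ± 2.43 FPKM in fresh-sperm embryos (SD, n = 3 each). The levels of the stalk partners did not overlap in any library. Above rplp2 came rpl35a, rpl36, rps15, a small subunit protein near the decoding site, and rpl4, which lines the exit tunnel of the nascent chain, at 14.3 to 20.5 FPKM on average.

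Among the 37 tested members the mean level per length thus spanned 35.4-fold. The part of copies known by a LOC number in this span was not tested.

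rps8b, which the reference table lists beside rps8a, had a count in 0 libraries.

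**Figure D2:**
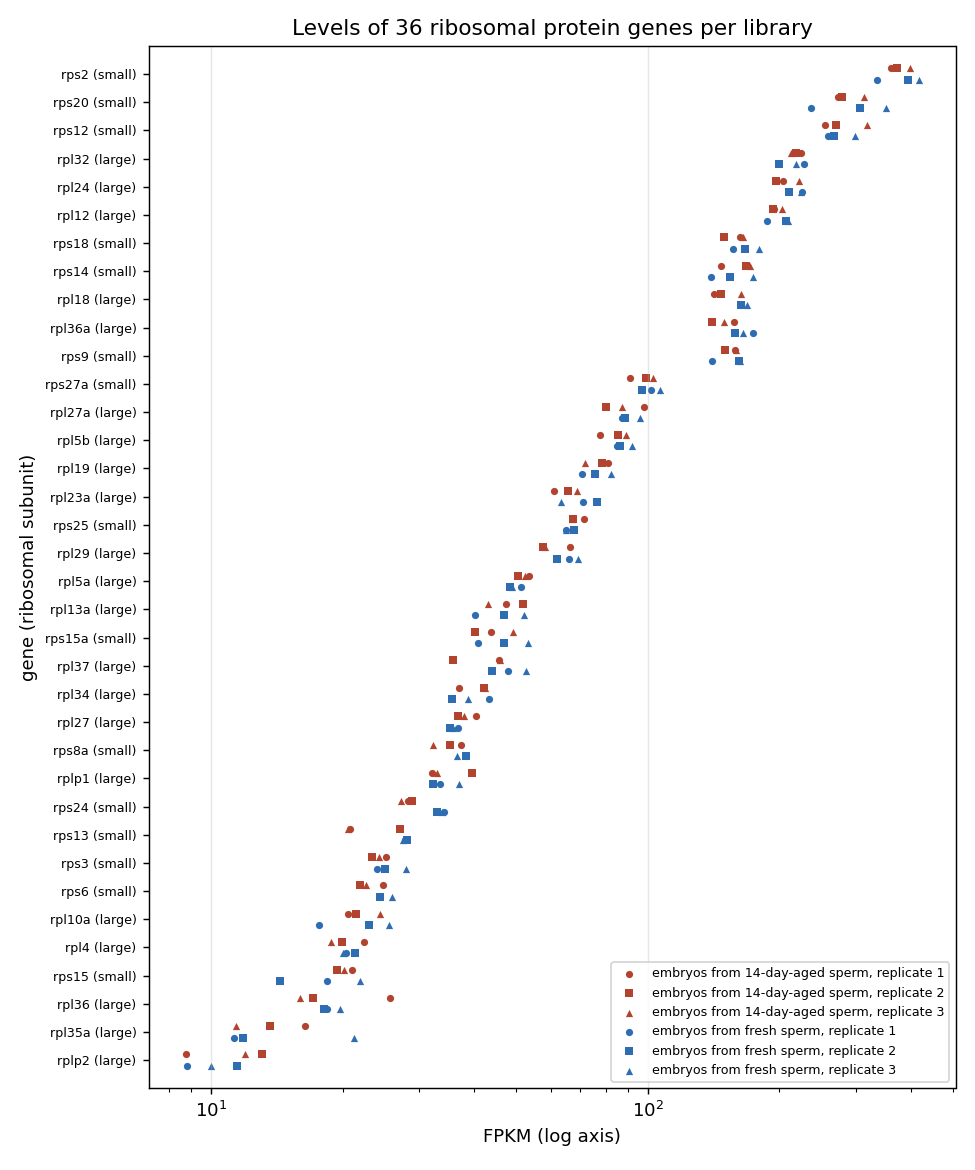
FPKM of 36 of the 38 ribosomal protein genes (log axis), 1 point per library, ordered by mean level from rps2 (379 FPKM) at the top to rplp2 (10.7 FPKM) at the bottom; colour gives the group and marker shape the replicate number. The points of the groups overlap for most genes.

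Aged-sperm embryos were compared with fresh-sperm embryos to ask whether storage of the sperm altered these mRNAs. edgeR's quasi-likelihood test, adjusted by Benjamini and Hochberg over 27342 tested genes, called 0 of 37 ribosomal protein genes higher and 0 lower at an adjusted p under 0.05. Over all tested genes it called 0.00731% higher and 0.00731% lower, 0.0146% in all. DESeq2 also called 0 of the members, where 0.163% of all genes passed. Before adjustment, edgeR's p was under 0.05 for 0 members in the higher and 2 in the lower direction, among them rps24, beside 1.46% of all genes higher and 1.9% lower, and DESeq2's for 0. This count of 2 became 0 without replicate 1 of aged-sperm embryos, replicate 1 of fresh-sperm embryos or replicate 3 of fresh-sperm embryos, and 3 without replicate 3 of aged-sperm embryos or replicate 2 of fresh-sperm embryos. The smallest adjusted p of a member in edgeR was 0.9998.

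The log2 fold changes of the members, aged-sperm over fresh-sperm embryos, ran from -0.30 (rps13) to 0.16 (rplp2), with 13 positive and 24 negative. Their median was -0.051 beside -0.00090 over all tested genes. It was -0.038 for the 22 large subunit and -0.070 for the 15 small subunit genes. The median of the members turned to 0.013 without replicate 3 of fresh-sperm embryos, while leaving out any other library put it between -0.092 and -0.011. The difference was smaller than the SD of 0.0846 between libraries of a group in the median log2 level of the members.

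The size of change that the libraries allow was also read for each gene. The 95% interval of the log2 fold change lay wholly within 1.5-fold in both directions for 34 of 37 members, against 61.6% of all tested genes, and within 2-fold for all 37. The members were more abundant, with a median of 23.8 CPM against 10.7 CPM over all tested genes, and higher counts give narrower intervals. The exceptions at 1.5-fold were rps13, rpl35a and rplp2. For rpl5a the interval ran from -0.082 to 0.21 and for rpl12 from -0.21 to 0.12. For rpl35a, mutated in some patients with Diamond-Blackfan anaemia, at 39.5 to 72.2 counts per library, it ran from -0.81 to 0.56.

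**Figure D3:**
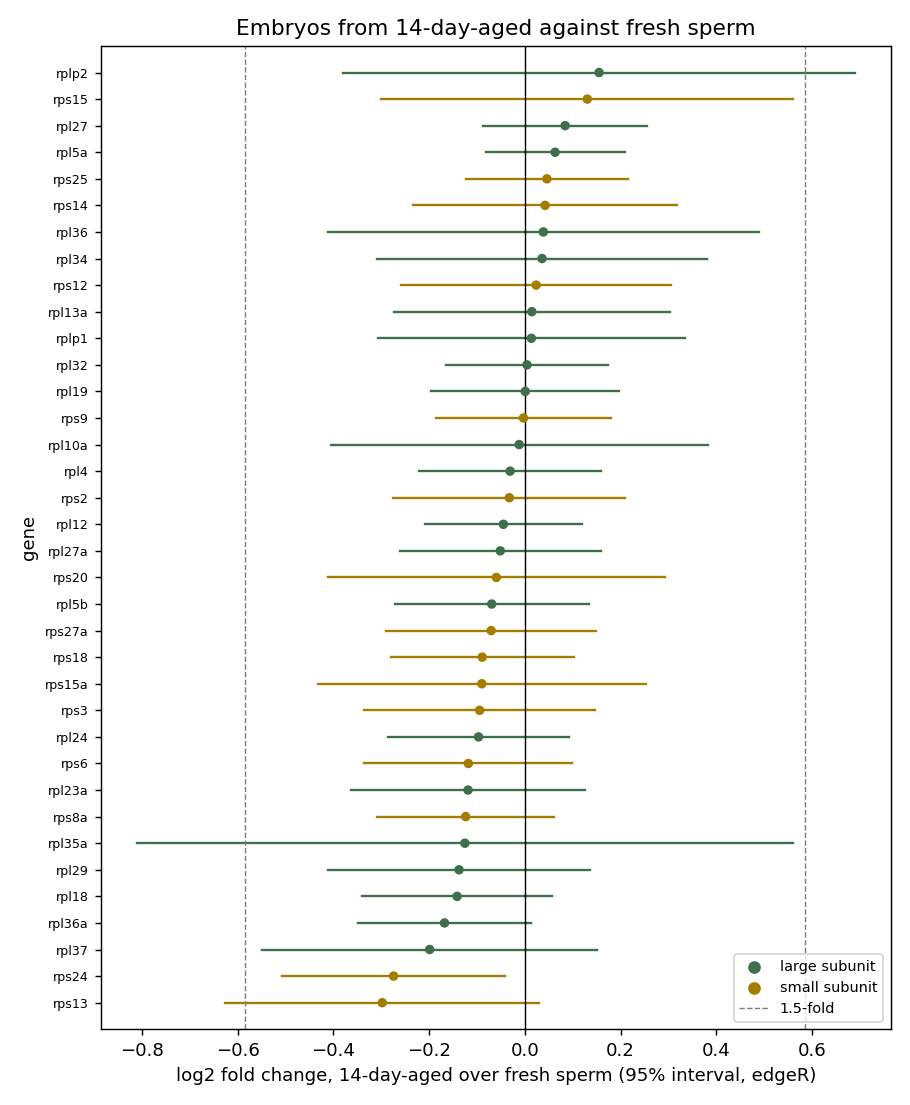
Log2 fold change of 36 of the 37 tested ribosomal protein genes, aged-sperm over fresh-sperm embryos, with its 95% interval from edgeR's fit (not adjusted for the number of genes); dashed lines mark 1.5-fold. The interval of rps24 lies below 0, those of the other genes drawn include it, and those of rps13, rpl35a and rplp2 cross a dashed line.

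In 4 members, all of the small subunit, no library of one group lay within the range of the other in TMM-scaled CPM, 3 lower and 1 higher. Which members were apart depended on the scale. In FPKM the libraries of rps8a and rps25 overlapped. On that scale large subunit genes such as rpl36a (lower) and rpl27 (higher) were apart, though narrowly. The highest aged-sperm library of rpl36a had 157.78 FPKM and the lowest fresh-sperm library 158.1 FPKM. Over all tested genes 4.11% were apart as higher and 4.45% as lower, 8.56% in all. The 4 of 37 members were close to that share.

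rps24, on chromosome B13 from 20260377 to 20263264, is 1 of the genes mutated in Diamond-Blackfan anaemia in humans. It had 131, 136 and 126 counts in aged-sperm embryos and 162, 150 and 155 counts in fresh-sperm embryos. Scaled to library size this was 8.55 ± 0.298 CPM in aged-sperm embryos against 10.3 ± 0.449 CPM in fresh-sperm embryos (SD, n = 3 each). Every fresh-sperm library was above every aged-sperm library. The log2 fold change was -0.27 (standard error 0.0985), with an unadjusted p of 0.0267 and an adjusted p of 0.9998 from edgeR. It stayed between -0.31 and -0.25 with single libraries left out.

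rps13 lies on chromosome B7 from 15723493 to 15725596. Its counts were 108, 142 and 106 in aged-sperm embryos and 146, 143 and 141 in fresh-sperm embryos. Replicate 2 of aged-sperm embryos lay close to the fresh-sperm libraries. The change on the log2 scale was -0.30 (standard error 0.139, with an adjusted p of 0.9998 from edgeR) and lay between -0.44 and -0.21 with single libraries left out.

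rps8a stood at 17.9 ± 0.743 CPM in aged-sperm embryos and 19.5 ± 0.273 CPM in fresh-sperm embryos (SD, n = 3 each), a log2 fold change of -0.12 (standard error 0.0783). rps25 is needed in mammalian cells for translation from internal ribosome entry sites. It was the 1 member apart as higher in CPM, at 20.2 ± 0.267 CPM in aged-sperm embryos and 19.6 ± 0.105 CPM in fresh-sperm embryos. Its log2 fold change was only 0.046 (standard error 0.0719). It varied least of all members, with a coefficient of variation of 0.929% within groups, on 289 to 321 counts per library. A coefficient from 3 libraries per group is itself uncertain, and counting error alone would give a larger one at this depth. The value therefore does not show that the gene is unusually stable.

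**Figure D4:**
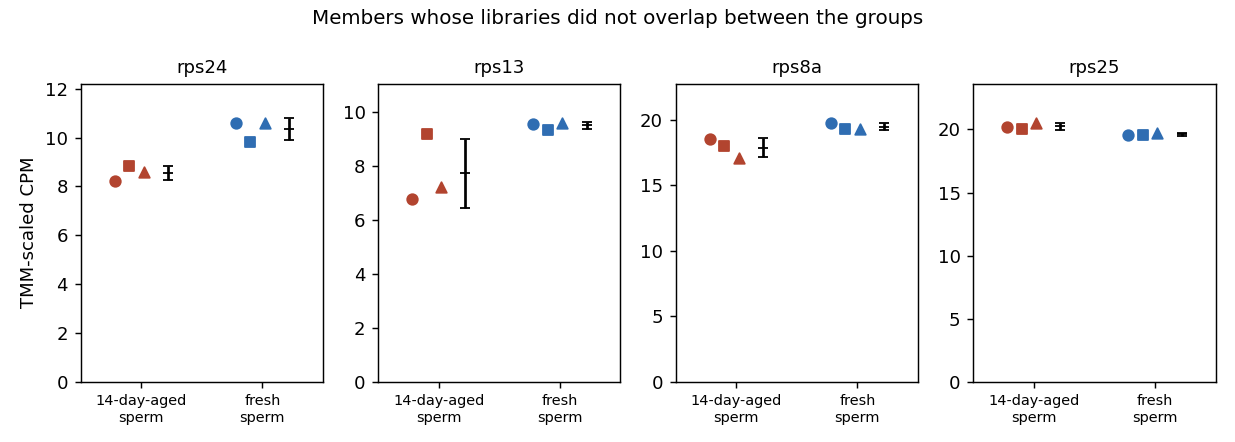
TMM-scaled CPM of rps24, rps13, rps8a and rps25, each axis from 0, for aged-sperm embryos (left in each panel) and fresh-sperm embryos (right); circles, squares and triangles are replicates 1, 2 and 3, and bars give the mean and SD. The first 3 genes were apart as lower and rps25 as higher, and 0 of the 4 passed the adjusted threshold.

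rpl37 and rpl36a, both of the large subunit, overlapped between the groups in CPM. Their log2 fold changes were -0.20 (standard error 0.149) for rpl37 and -0.17 (standard error 0.0765) for rpl36a.

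The largest positive values belonged to rplp2, at 0.16 (standard error 0.227), rps15, at 0.13 (standard error 0.183), and rpl27, at 0.084 (standard error 0.0728). The sign of rps15 turned without replicate 2 of fresh-sperm embryos, where it was -0.030. rplp2 rested on 38 to 58 counts per library.

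The copies of rpl5, whose protein carries a small ribosomal RNA into the large subunit and in mammals binds the p53 regulator MDM2, overlapped between the groups, and neither copy passed the test. rpl5a (chromosome B2, 8905761 to 8909322) had 693, 649 and 659 counts in aged-sperm embryos and 653, 611 and 618 counts in fresh-sperm embryos, a log2 fold change of 0.063 (standard error 0.0616). rpl5b (chromosome A6, 19179971 to 19190758) had 1001, 1094 and 1119 counts in aged-sperm embryos and 1077, 1082 and 1158 counts in fresh-sperm embryos, a log2 fold change of -0.069 (standard error 0.0860) that turned to 0.0038 without replicate 1 of aged-sperm embryos. Per length rpl5b was the higher copy in every library, at 77.6 to 91.9 FPKM against 48.4 to 53.5 FPKM for rpl5a. Counts of rpl5b were not whole, so some of its reads also matched another locus.

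For the 5 most abundant members the intervals lay within 1.5-fold in both directions. rps2 had a log2 fold change of -0.032 (95% interval -0.27 to 0.21), rps20 -0.059 (-0.41 to 0.29), rps12 0.024 (-0.26 to 0.31), rpl32 0.0046 (-0.16 to 0.17) and rpl24 -0.097 (-0.29 to 0.093). The sign of each of these except rpl24 turned when single libraries were left out. rps6, the small subunit protein phosphorylated by S6 kinases in response to growth signals, stood at 15.0 ± 0.768 CPM in aged-sperm embryos and 16.3 ± 0.947 CPM in fresh-sperm embryos (SD, n = 3 each), a log2 fold change of -0.12 (standard error 0.0921).

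Members of both subunits stood high in replicate 3 of each group. In replicate 3 of aged-sperm embryos 24 of 37 members had their highest TMM-scaled CPM of that group, and in replicate 3 of fresh-sperm embryos 27 of 37. The TMM factor of replicate 3 was the lowest of each group, at 0.979 in aged-sperm and 0.967 in fresh-sperm embryos, which raises its CPM. The counts depend on this scale. rpl32 was highest in replicate 3 of aged-sperm embryos in CPM (70.4) but lowest there in FPKM (212.92). Over all tested genes these shares were 35.5% in aged-sperm and 37.7% in fresh-sperm embryos. In both groups at once, replicate 3 was the highest library for 18 of 37 members, 11 of the 15 small and 7 of the 22 large subunit genes, and for 19.7% of all tested genes. The median member of replicate 3 exceeded the mean of replicates 1 and 2 by 0.089 on the log2 scale in aged-sperm embryos and by 0.14 in fresh-sperm embryos, beside 0.0037 in aged-sperm and 0.0077 in fresh-sperm embryos over all tested genes. For small subunit genes the median was 0.12 in aged-sperm and 0.20 in fresh-sperm embryos, and for large subunit genes 0.081 in aged-sperm and 0.11 in fresh-sperm embryos.

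rps20 had 78.3, 84.2 and 97.7 CPM in aged-sperm embryos and 72.5, 90.3 and 108 CPM in fresh-sperm embryos, with replicate 3 the highest in each group. For rps15a of the small subunit, replicate 3 exceeded the mean of the other replicates by 0.32 on the log2 scale in aged-sperm embryos and by 0.31 in fresh-sperm embryos. For rpl10a, a protein of the mobile stalk on the large subunit, these differences were 0.28 in aged-sperm embryos and 0.39 in fresh-sperm embryos. In TMM-scaled CPM rps8a was the 1 member lower in replicate 3 than in the mean of the other replicates in both groups. The difference was -0.098 in aged-sperm and -0.017 in fresh-sperm embryos. This depended on the scale, since in FPKM other members such as rps25 were lower as well. rps25 had 71.4, 67.5 and 67.03 FPKM in aged-sperm embryos and 64.98, 67.6 and 65.02 FPKM in fresh-sperm embryos. rpl35a went opposite ways in the groups, at -0.30 in aged-sperm embryos and 0.88 in fresh-sperm embryos, on few counts.

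The summed counts of small over large subunit genes followed the same libraries, at 1.09, 1.12 and 1.16 in aged-sperm embryos and 1.01, 1.14 and 1.17 in fresh-sperm embryos. The ratio was highest in replicate 3 of each group. Transcripts of the mitochondrial genome also took their highest share in replicate 3, with 1.89%, 1.80% and 2.57% of counts in aged-sperm embryos and 1.37%, 1.57% and 1.93% in fresh-sperm embryos. Their part in the levels of ribosomal protein genes was not tested. Without replicate 3 of both groups, a setting chosen after seeing the data, the share of counts of ribosomal protein genes in aged-sperm embryos was 0.977 times that in fresh-sperm embryos, against 0.975 times with all libraries.

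**Figure D5:**
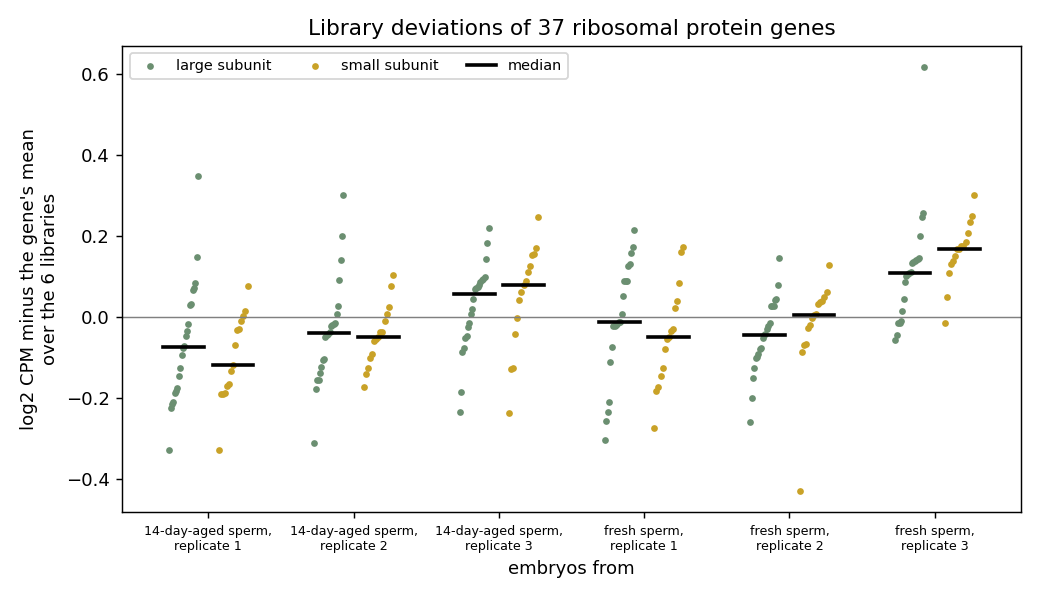
Log2 CPM of each of the 37 tested ribosomal protein genes minus its own mean over the 6 libraries, by library and subunit, with black bars at the medians; aged-sperm embryos stand left of fresh-sperm embryos. The medians of replicate 3 are 0.058 (large) and 0.080 (small) in aged-sperm embryos and 0.11 and 0.17 in fresh-sperm embryos, above those of every other library.

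Within groups the members had a median coefficient of variation of 8.13%, beside 11.2% over all tested genes, which were less abundant, with a median of 10.7 CPM against 23.8 CPM for the members. rps25, rps8a and rpl5a varied least, at 0.929%, 2.78% and 3.43%, and rpl35a most, at 26.5%. Each of these values rests on 3 libraries per group and is uncertain. Those of rps25, rps8a and rpl5a are smaller than counting error alone would give at their depth.

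Genes that act with the ribosomal proteins were counted from lists drawn up by symbol. faub, which encodes a small subunit protein fused to a ubiquitin-like protein and falls outside the name rule, was tested. It had 9 to 20 counts per library and a log2 fold change of 0.042 (standard error 0.359).

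Of 5 tested ribosomal protein S6 kinase genes edgeR called 0, also at an unadjusted p under 0.05, and DESeq2 0. rps6kc1, with 957 to 1135 counts, had a log2 fold change of 0.048 and rps6kal, with 652 to 734 counts, 0.0089. A list of 29 genes of mTOR signalling, of translation control or of the larp family had 11 with a count. mtor and larp1 themselves had no count under these symbols. Of the 8 tested genes of this list 0 were called by each of these measures, with a median of 0.012. Among them were eif4ebp3l, which binds the cap-binding factor eIF4E, at -0.018, and larp6a, an RNA-binding protein, at -0.13.

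Of 17 tested chaperones and assembly partners of ribosomal proteins, 0 were called by each of these measures, and their median was 0.025. Their 2 most highly counted genes were grwd1, a chaperone of the large subunit protein rpl3, at 0.0055 (95% interval -0.18 to 0.19), and bms1, a GTPase of small subunit assembly, at -0.012 (-0.26 to 0.23). Of the factors known to be bound to dormant ribosomes of fish eggs, or related to them, 3 were tested, with 0 called by each measure. They included eif5a2 at 0.060 (95% interval -0.087 to 0.21) and serbp1a at -0.017 (-0.14 to 0.10).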

How the data were processed

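RNA-Seq was done on 6 libraries of mid-blastula embryos, grouped by their labels. By the study's methods, the authors sequenced oligo(dT)-selected mRNA on DNBSEQ, mapped it to ASM1834038v1 (HISAT2) and built transcripts (StringTie, Cuffmerge). They also aligned reads with Bowtie2 to what the methods call the reference sequence. RSEM appears in the names of the deposited sheets. The submitters' processing notes give no versions for HISAT2, StringTie, Bowtie2 and DESeq2. The authors deposited estimated counts and FPKM per gene and library; FPKM uses effective length, and genes without reads are not listed. Gene_Length was used as deposited. A deposited table of the authors' own comparison, with p-values and fold changes of single genes, was not used, nor were 18 other per-library columns.

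The estimated counts, rounded and with unlisted genes at 0, were tested in R 4.3.3 by edgeR 4.0.16 (TMM, filterByExpr, quasi-likelihood test, Benjamini-Hochberg adjustment over 27342 genes, threshold 0.05). The standard error is the log2 fold change divided by the square root of F, and 95% intervals use the fit's degrees of freedom. Alternatives were DESeq2 1.42.0, RLE size factors, annotated genes only, no low-count filter, a minimum of 10 counts per library, log2(FPKM + 1), the replicate number as a block, and each library left out in turn. The script was tested on simulated data. Chromosomes and coordinates came from the RefSeq gene table of the same assembly, which matched 38 of 38 genes. No sequences are shown.

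The members and gene lists were chosen with earlier results of these data known. Genes to name were the 5 tested members of highest and of lowest FPKM, the 5 of largest positive and of largest negative log2 fold change, paired copies, stalk genes, members with a listed role such as rps6, and any below the low-count filter; rps8a and others named by overlap, spread or middle rank were added after their values were seen. For the other lists the rule takes called genes, otherwise the 2 of highest count. larp6a was named outside this rule. The results of some genes are not reported here. Replicate numbers were not taken to pair the libraries, as no source used here ties them to males. Deviations from group means over 27342 tested genes correlated at -0.00237, 0.0375 and 0.0886 between libraries of 1 number. These values cannot settle whether libraries are paired, since counting noise in genes of low count also brings them towards 0. With 3 libraries against 3, no permutation test was made, and scores over the members were given no p. Libraries of every pair differed by more than counting noise. The chi-square per degree of freedom between the groups was 7.62, 6.11 and 6.41 for replicates 1, 2 and 3. With every other library it was 8.25 to 11.15 for replicate 3 of aged-sperm embryos. For replicate 3 of fresh-sperm embryos it was 7.93 to 10.43. The replicate 3 libraries were thus closest to each other, and what they share was not tested.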

Additional observations from a re-analysis of the deposited data

How the results depend on the processing

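The count of ribosomal protein genes called was 0 in all 6 planned settings other than a left-out library and with each of the 6 libraries left out, and the smallest adjusted p of a member in any of these was 0.866. The count over all tested genes was 4; it was 57 in DESeq2, 1 with at least 10 counts required in every library, 2 among annotated genes only and 0 with the replicate number as a block (replicate block). With single libraries left out it ran from 3 to 9, the 9 without replicate 3 of fresh-sperm embryos. The replicate block gave a median log2 fold change of the members of -0.048 (-0.051 without it) and 3 members at an unadjusted p under 0.05 (2 without it); it changed no call among the members. Over all settings the median of the members ran from -0.092 to 0.013 and the ratio of their shares of counts, aged-sperm over fresh-sperm embryos, from 0.952 to 1.001, and neither moved by more than the spread between libraries. Among settings chosen after seeing the data, that ratio was 0.973 without rps2, and the median over members with whole counts was -0.048.

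For the 21 named genes 256 of 273 alternative values kept their sign. The other 17 arose from single libraries left out, with ranges of -0.064 to 0.056 for rpl32, -0.28 to 0.24 for rpl35a, -0.16 to 0.14 for rpl36, -0.084 to 0.0072 for rpl4, -0.13 to 0.0038 for rpl5b, -0.091 to 0.10 for rplp1, -0.10 to 0.12 for rps12, -0.030 to 0.30 for rps15, -0.12 to 0.056 for rps2 and -0.19 to 0.090 for rps20. Depth limits rplp2, rpl36 and rpl35a, with under 100 counts in every library.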
